A study of Mus musculus with 6 samples.

Results

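Integrins and other leukocyte adhesion genes were examined in mouse bone marrow progenitors transformed by Hoxa9 and Meis1, with and without the microRNA miR-155. The list holds 38 genes: 25 integrin subunits, 6 counter-receptors and junctional molecules, 3 cytoplasmic activators or linkers and 4 other surface proteins. A gene was measured where a row of the deposited table carried its symbol alone, which held for 32 of the 38, among 14860 genes named in the same way. Itga1, Itga4 and Itgax had only rows shared with a second gene, and Itga10, Itgad and Itgb8 had no row under their name, so these 6 were not analysed here. The integrin subunits measured were therefore 19 of 25.

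All cultures were primary bone marrow cells of female C57Bl/6 mice aged 12 weeks and treated with 5-FU (fluorouracil), grown in DMEM with 15% FCS, IL3, SCF and IL6. Both groups had been transduced with MSCV retroviral constructs for Hoxa9, marked by GFP, and Meis1, marked by YFP, a gene pair whose joint expression immortalises myeloid cells. The comparison sets 3 miR-155 KO arrays beside 3 WT arrays, described by the submitters as independent experiments, and the labels name neither the animals nor the cultures behind them, so p-values rest on array-to-array spread, which may be technical. The values are log2 expression values from the RMA method, with array medians between 6.55 and 6.66.

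Integrins are paired receptors of an alpha and a beta subunit that bind matrix proteins or counter-receptors on other cells. Leukocytes carry the beta2 family, in which Itgb2 pairs with Itgal (LFA-1, which binds ICAMs) or Itgam (Mac-1, the CD11b antigen of myeloid cells), besides beta1 and beta7 integrins that bind matrix, VCAM-1, MAdCAM-1 or E-cadherin. The receptors rest in a low-affinity state until talin and kindlin bind the beta tail from inside the cell. In marrow, beta1 integrins and CD44 hold progenitors in their niche, and PSGL-1, the product of Selplg, lets leukocytes roll on selectins.

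The microRNA that separates the groups is shown for its seed, bases 2 to 8 in capitals, which pairs with target mRNAs. The sequence is RefSeq's, at chr16:84714143-84714165 on the plus strand of GRCm38.p6.
miR-155-5p: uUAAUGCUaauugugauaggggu
No row of the table was named for this microRNA or its host gene, so the deletion was not checked in these arrays.

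Signals were set against 718 olfactory receptor genes, taken as not used by marrow cells, and a gene was counted as above background when its mean over the 6 arrays exceeded their 95th percentile, 5.98. This held for 23 of the 32 measured adhesion genes (71.9%), where 66.1% of all genes passed. Signals of different probe sets do not measure relative amounts of RNA, since probes differ in how brightly they bind, so the order that follows is one of array signal. Among integrin subunits 11 of 19 lay above background. The highest signals were those of the beta2 chain Itgb2 (mean 11.05), its partner Itgam (10.99), the shared beta1 chain Itgb1 (10.54), the laminin receptor chain Itga6 (9.89) and Itgal (9.84), each above 90% of all genes. Some neighbours in this order were not apart: the ranges of Itgb2 (10.77 to 11.32) and Itgam (10.52 to 11.20) overlapped, as did those of Itga6 (9.81 to 9.98) and Itgal (9.72 to 9.95). Itgb1, from 10.39 to 10.76, lay wholly above Itga6 and overlapped Itgam.

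Below them came the beta7 chain Itgb7 (9.06), the fibronectin receptor chain Itga5 (8.75), the vitronectin receptor chain Itgav (8.69) and its partner Itgb5 (8.54). Itgb2l, a mouse gene related in sequence to Itgb2, had a mean of 6.95, and the laminin receptor chain Itgb4 had 6.26. The 8 integrin subunits below background were Itga2, Itga3, Itga7, Itga8, Itga9, Itga11, Itgae and Itgb6, with means from 3.62 (Itgb6, the epithelial partner of Itgav) to 5.94 (Itga7). The array signal was thus high for both measured chains of LFA-1, both of Mac-1 and both of the laminin receptor alpha6 beta1. For the beta7 chain, the one partner measured was Itgae, at 5.15, and Itga4 could not be read.

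**Figure D1:**
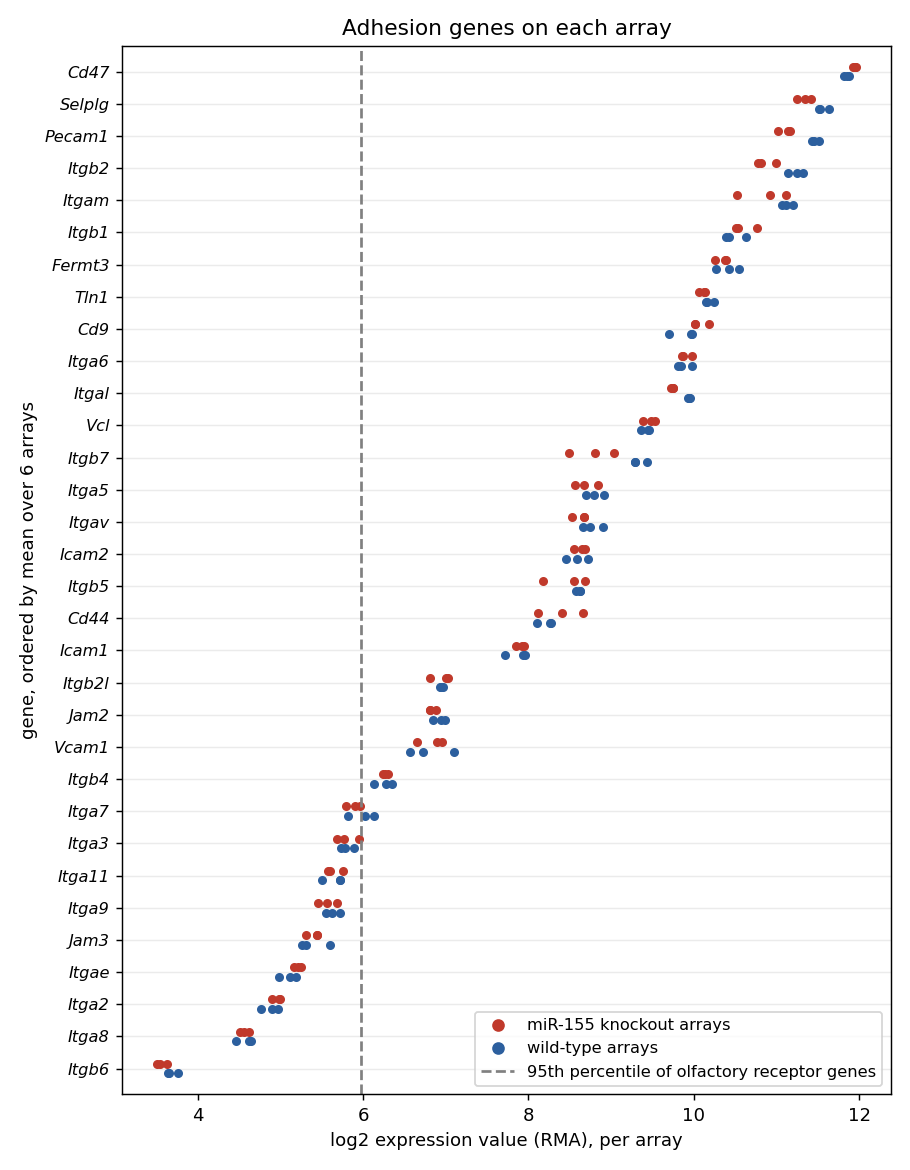
Log2 expression values (horizontal axis) of the 32 measured adhesion genes (vertical axis, ordered by their mean over 6 arrays) on each miR-155 knockout array (red) and wild-type array (blue). The dashed line marks the background level of 5.98, and 23 genes have a mean to its right.

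Outside the integrins, the highest signals of the list were those of Cd47 (mean 11.90), the "do not eat me" surface protein read by SIRP alpha on phagocytes, of Selplg (11.45) and of Pecam1 (11.29), an adhesion molecule of leukocytes, platelets and endothelium. The activators of integrins were also bright. Fermt3, the kindlin of blood cells, had a mean of 10.38, the talin gene Tln1 had 10.15, and Vcl, which encodes the talin-binding protein vinculin, had 9.45. Vcam1 (6.82) and Jam2 (6.88) lay a little above background and Jam3 (5.40) below it.

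Knockout was compared with wild type by a limma model fitted to all 14860 genes, with Benjamini-Hochberg adjustment over all of them. No adhesion gene passed an adjusted p of 0.05, where 0.0269% of all genes (4 genes, each lower in the knockout) passed, and with any 1 array left out at most 1 gene of the whole table passed. At an unadjusted p under 0.05 there were 5 adhesion genes, all of them lower in the knockout, against 7.23% of all genes in either direction. They were Itgb7, Itgb2, Itgal, Pecam1 and Selplg. These 5 are 15.6% of the 32, while 5.44% of all genes were lower and 1.78% higher by the same rule. The median difference of the 32 was −0.01 on the log2 scale, against −0.03 for all genes, with 18 below 0 and 14 above. Among genes above background it was −0.07 for the 23 of the list and −0.03 for all genes. The list was chosen with earlier results of these arrays known, so these counts are descriptions and carry no test.

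The values of the genotypes were fully apart in 9 of the 32 genes (28.1%), and in 13.3% of all genes. The knockout was the lower group in 7 of them, with 10.4% of all genes, and the higher group in 2, with 2.88% of all genes. The 7 were the 5 genes named above, Tln1 and Itgb6, the last of which lay below background. The higher pair was Cd9 and Cd47. The count of 9 became 14 without knockout 2 and 14 without wild type 2, and smaller groups separate more easily. It was 8 with median-centred arrays and 8 once quantiles were normalized again, with 6 lower in each. The share of all genes is not given for a left-out array or for these scalings, so these counts cannot be set against the 13.3%. The excess of lower over higher genes in the whole table depended in part on its scaling. Among all genes at an unadjusted p under 0.05, 24.7% were higher, and this became 35.3% with median-centred arrays and 36.6% once quantiles were normalized again. Under both of these scalings the same count of 5 adhesion genes was lower and 0 were higher.

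**Figure D2:**
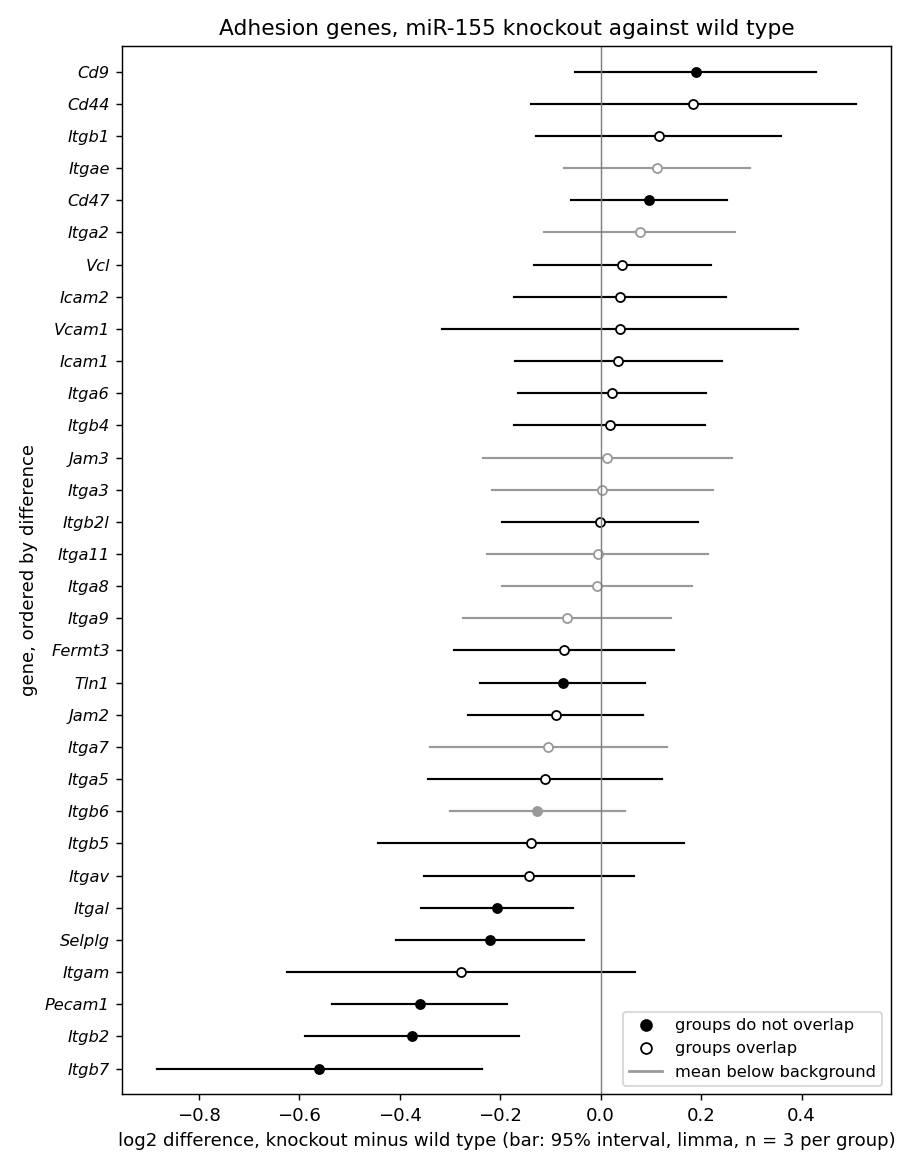
Log2 difference, knockout minus wild type (horizontal axis), of each of the 32 adhesion genes with its 95% interval from limma (bars, n = 3 per group). Filled points mark the 9 genes whose groups do not overlap and grey marks genes below background. Itgb7, Itgb2, Pecam1, Selplg and Itgal have intervals wholly below 0.

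The beta2 integrins lay lower in the knockout in both chains of LFA-1, short of the adjusted threshold. In bulk samples such as these, fewer cells of a type and less RNA per cell cannot be told apart. Itgb2, the chain shared by all beta2 integrins, read 10.81, 10.997 and 10.77 on the knockout arrays and 11.25, 11.14 and 11.32 on the wild-type arrays. The highest knockout array lay under the lowest wild-type array. The means were 10.86 ± 0.12 and 11.24 ± 0.09 (SD, n = 3 each), a 1.30-fold lower signal or −0.38 ± 0.09 (SE) on the log2 scale (limma, adjusted p = 0.422, unadjusted p = 0.004). The 95% interval ran from −0.59 to −0.16.

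Itgal, the alpha chain of LFA-1, read 9.72, 9.75 and 9.75 in the knockout and 9.95, 9.95 and 9.94 in the wild type. The arrays of each genotype lay close together and the groups were well apart. The difference was −0.21 ± 0.06 (SE; limma, adjusted p = 0.538), a 1.15-fold lower signal.

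Itgam, the alpha chain of Mac-1, read 10.92, 11.12 and 10.52 in the knockout and 11.20, 11.06 and 11.12 in the wild type. The groups overlapped, because knockout 2 lay within the wild-type range, and knockout 3 was far below the other arrays. The difference was −0.28 ± 0.15 (SE; limma, adjusted p = 0.765), and it was −0.11 without knockout 3. Itgb2l did not follow Itgb2: its difference was −0.001, with an interval from −0.20 to 0.19 and knockout arrays between 6.80 and 7.02. That difference turned to 0.01 under either rescaling.

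Itgb7 had the largest difference of the list. This chain forms the gut-homing receptor alpha4 beta7 and the E-cadherin receptor alphaE beta7, and it is also carried by mast cell progenitors in the mouse. It read 8.81, 9.04 and 8.50 in the knockout and 9.29, 9.30 and 9.44 in the wild type. All knockout arrays were lower, and they were spread more widely than the wild-type arrays. The means were 8.78 ± 0.27 and 9.34 ± 0.08 (SD, n = 3 each), a 1.47-fold lower signal, or −0.56 ± 0.14 (SE) on the log2 scale (limma, adjusted p = 0.431). With each array left out in turn the difference stayed between −0.69 and −0.42. Its range over the 6 arrays, 0.94, was wider than that of 95% of all genes.

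**Figure D3:**
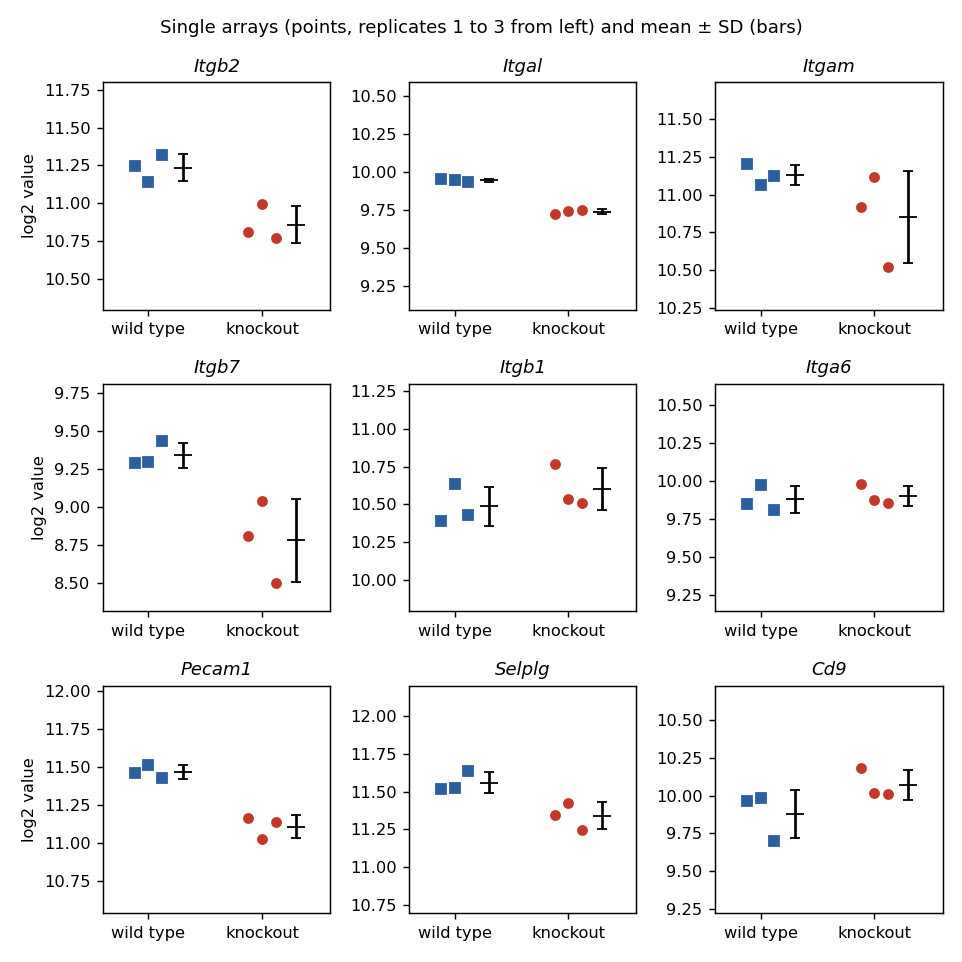
Log2 values (vertical axis, the same span of 1.5 in each panel) of 9 adhesion genes on single wild-type arrays (blue squares) and knockout arrays (red circles), with the mean ± SD of each group (black bars, n = 3). The groups are apart for Itgb2, Itgal, Itgb7, Pecam1, Selplg and Cd9 and overlap for Itgam, Itgb1 and Itga6.

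Itgb1, Itga5, Itga6, Itgav, Itgb4 and Itgb5, chains of matrix receptors that lay above background, had overlapping genotypes. Itgb6, below background, did not overlap, with 3.51 to 3.63 in the knockout and 3.64 to 3.76 in the wild type. Itgb1, the chain shared by receptors for fibronectin, collagen and laminin, read 10.76, 10.54 and 10.51 in the knockout and 10.39, 10.64 and 10.43 in the wild type. The groups overlapped, with a difference of 0.12 and an interval from −0.13 to 0.36 (limma, adjusted p = 0.873). Itga6 read 9.98, 9.88 and 9.85 against 9.85, 9.98 and 9.81. These ranges are almost the same, and the interval of the difference, −0.16 to 0.21, allows at most a 1.16-fold higher signal in the knockout.

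Itga5, which pairs with Itgb1 to bind fibronectin, differed by −0.11 (interval −0.34 to 0.12), with overlapping groups. Itgav, whose receptors bind RGD sequences in vitronectin and other matrix proteins, differed by −0.14 (interval −0.35 to 0.07). Its partner Itgb5 read 8.55, 8.68 and 8.18 in the knockout and 8.57, 8.63 and 8.62 in the wild type, so that a single knockout array lay apart. Without knockout 3 the Itgb5 difference turned from −0.14 to 0.01. The difference between beta2 or beta7 chains and beta1 chains in response to genotype was not itself tested.

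The intracellular activators varied little. Fermt3 read 10.25, 10.37 and 10.39 in the knockout and 10.42, 10.27 and 10.55 in the wild type, a difference of −0.07 (interval −0.29 to 0.15). Tln1, which binds the beta tail and links it to actin, read 10.07, 10.12 and 10.14 against 10.15, 10.16 and 10.25. Its groups did not overlap, but the difference of −0.08 had an interval from −0.24 to 0.09 (limma, adjusted p = 0.877). Vcl differed by 0.04 (interval −0.13 to 0.22) and its range over all arrays was 0.16.

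Pecam1 had the smallest p of the list. It read 11.16, 11.02 and 11.13 in the knockout and 11.46, 11.52 and 11.43 in the wild type. All knockout arrays lay below all wild-type arrays, and leaving out single arrays moved the difference only between −0.39 and −0.32. The difference of −0.36 ± 0.07 (SE; limma, adjusted p = 0.365) is a 1.28-fold lower signal. Endothelial cells also carry Pecam1, and the endothelial genes Cdh5, Kdr, Tek and Emcn lay below background, between 3.48 and 5.49 on all arrays. Of the 13 stromal and endothelial markers together, 5 lay above background, and they averaged 5.36 to 5.55 over the knockout arrays and 5.49 to 5.59 over the wild-type arrays. Among them, Pdgfrb, above background at a mean of 7.67, differed by −0.34 (limma, adjusted p = 0.328) and Emcn by −0.28, both without overlap, and Lepr by −0.38, with all 3 named after their values were seen. Their part in the Pecam1 difference was not tested.

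The other counter-receptors gave no such separation. Icam1 and Icam2, ligands of LFA-1, differed by 0.04 each, with intervals from −0.17 to 0.24 and from −0.17 to 0.25. Vcam1, the ligand of alpha4 integrins, read 6.96, 6.89 and 6.66 in the knockout and 6.56, 7.11 and 6.72 in the wild type, with the wild-type arrays both lowest and highest. Jam2 differed by −0.09 and Jam3 by 0.01.

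Selplg, the selectin ligand, read 11.35, 11.42 and 11.25 in the knockout and 11.52, 11.52 and 11.64 in the wild type. The knockout arrays were all lower, by −0.22 ± 0.08 (SE; limma, adjusted p = 0.605), a 1.16-fold lower signal. Cd9, a tetraspanin that associates with integrins, read 10.18, 10.02 and 10.01 against 9.96, 9.98 and 9.70. Here the knockout was the higher group, by 0.19 (interval −0.05 to 0.43; limma, adjusted p = 0.768), and by 0.10 without wild type 3.

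Cd47 read 11.96, 11.95 and 11.93 in the knockout and 11.88, 11.82 and 11.85 in the wild type, the narrowest range of the list at 0.14. The knockout was higher by 0.10 (interval −0.06 to 0.25; limma, adjusted p = 0.832). Cd44, the hyaluronan receptor, read 8.40, 8.66 and 8.12 against 8.26, 8.27 and 8.10. The knockout arrays spanned more than the wild-type range, and the difference was 0.18 (interval −0.14 to 0.51).

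Over the whole list, the 95% interval of the difference stayed within 1.5-fold either way for 29 of the 32 genes. The 3 whose interval reached further were Itgb7, Itgb2 and Itgam, each on the lower side. The share of all genes within this limit is not given, so the count cannot be set against other genes. The median SE was 0.089 for the list and 0.097 for all genes. The adhesion genes varied about as much as other genes between arrays, with a median range over 6 arrays of 0.27 against 0.33 for all genes. Among genes above background the median range was 0.35 for the list and 0.31 for all genes. Of the 23 genes above background, knockout 3 was the lowest array for 7 and the highest for 0, and each of the other arrays was lowest for 2 to 4 and highest for 4 to 6. Knockout 3 also had the lowest median over all rows of the table, 6.55, where the other arrays had 6.58 to 6.66. The same counts over all genes are not given, so it cannot be said whether this order is particular to the adhesion genes.

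**Figure D4:**
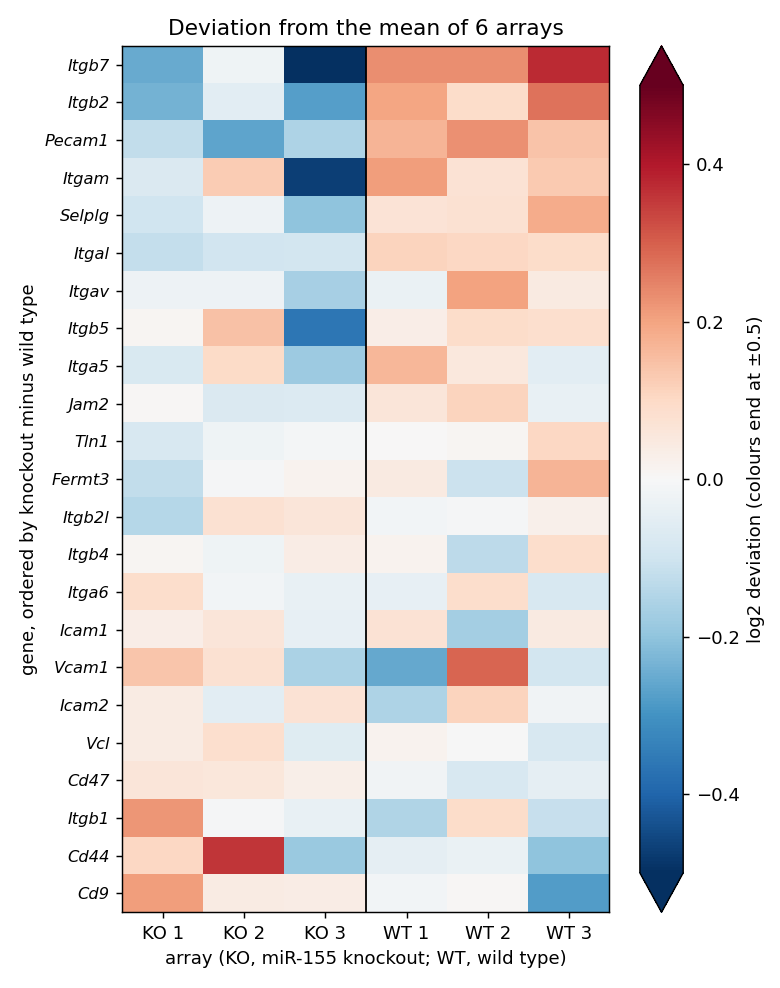
Log2 deviation of each array (columns) from the mean of all 6 arrays for the 23 adhesion genes above background (rows, ordered by knockout minus wild type). Blue is lower and red higher, and the colours end at 0.5 either way. Knockout 3 is the lowest array for 7 genes, Itgam, Itgb7 and Itgb5 among them, and has the lowest median over all rows of the table.

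Other genes of the adhesion machinery were read from lists drawn from general knowledge, with earlier results of these arrays known, and no member passed the adjusted limma test in any of them. For their counts at an unadjusted p under 0.05, the share over all genes was 7.23% in either direction, 1.78% higher and 5.44% lower. Lists of 16 to 26 genes whose 1 or 2 genes at this threshold were all higher in the knockout lie above the 1.78%. Counts this small were not tested and single out no list. For the counts without overlap given below, the share over all genes was 2.88% higher and 10.4% lower, and these were not tested either. The platelet integrin chains Itga2b and Itgb3, which are outside the 38, had differences of 0.01 and 0.16, and the knockout arrays of Itgb3 (8.45 to 8.72) lay above the wild-type arrays (8.37 to 8.42). Of 26 measured genes of integrin activation and adhesion complexes, an unadjusted p under 0.05 was found for 2, both higher in the knockout. They were Fyb, an adaptor on the path from receptors to integrin activation, and Parvb, a parvin that binds integrin-linked kinase. The differences were 0.36 for Fyb and 0.19 for Parvb (limma, adjusted p = 0.664 for each). Without overlap, 3 of the 26 were higher and 3 lower.

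Of 16 measured selectins and genes of selectin ligand synthesis, 2 had an unadjusted p under 0.05, both with higher knockout values. P-selectin, Selp, differed by 0.60 (limma, adjusted p = 0.110), so that this receptor and its ligand gene Selplg had differences of opposite sign. The sialyltransferase gene St3gal6 differed by 0.26 and lay below background. Both were without overlap, and 2 others of the 16, Fut7 (−0.23) and Cd34 (−0.16), were lower without overlap. Of the 16 differences, 9 lay below 0. Among 16 immunoglobulin and junctional adhesion genes, 1 was higher and 0 lower, namely Ncam1, by 0.35 (limma, adjusted p = 0.547). Among 20 tetraspanins and partners of CD47 or CD44, 1 was higher and 1 lower. Cd151, a tetraspanin that binds laminin receptors, differed by 0.21, and Cd81, another tetraspanin, by −0.20, both without overlap. Of 16 integrin ligands of the matrix, 0 passed in either direction by limma at an unadjusted p under 0.05. The groups did not overlap in 5 of the 16, with 4 lower in the knockout and 1 higher. Fn1, the fibronectin gene, was among the lower 4, and the others of these lay below background. It read 10.37, 10.48 and 9.52 in the knockout and 10.81, 10.60 and 10.51 in the wild type. The Fn1 difference was −0.52 (interval −1.08 to 0.05; limma, adjusted p = 0.732).

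Cell type markers were read on the same bulk arrays, which cannot show which cells carry these integrins. All 10 progenitor markers lay above background, from Cd48 (8.69) to Myb (11.87), as did all 11 measured neutrophil markers. The neutrophil markers averaged 10.97 to 11.15 over the knockout arrays and 10.87 to 10.9998 over the wild-type arrays, with 9 of 11 differences above 0. Mpo (0.24), S100a9 (0.28) and Mmp8 (0.40) were higher without overlap. Another 1 of the 11 was lower without overlap, and the lowest difference among them was −0.34. The 9 measured monocyte and macrophage markers, of which 8 were above background and C1qa was below, averaged 8.15 to 8.53 over the knockout arrays and 8.42 to 8.64 over the wild-type arrays, with knockout 3 the lowest, as it was for Itgam and Itgb7. Members of this list went different ways. Adgre1, the F4/80 antigen, differed by −0.82 (limma, adjusted p = 0.086) and the complement gene C1qb by −0.58, both without overlap, while the chemokine receptor gene Ccr2 differed by 0.25. The 6 measured eosinophil markers averaged 6.68 to 7.19 against 6.93 to 7.36, with Il5ra and Ccr3 below background. Differences in this eosinophil list went from −0.78 to 0.29, with 4 of 6 below 0. The 6 measured megakaryocyte and platelet markers, all above background, averaged 8.03 to 8.20 against 7.71 to 8.003. Their differences ran from 0.01 (Itga2b) to 0.49. The 8 measured mast cell and basophil markers, also all above background, averaged 9.13 to 9.52 against 8.99 to 9.22. Here Fcer1a, a chain of the IgE receptor, differed by 0.98 without overlap (limma, adjusted p = 0.392) and the protease gene Prss34 by −0.47. The single markers given here for their differences were chosen after their values were seen. Above background were 5 of 8 measured dendritic cell, 3 of 5 B lymphoid, 3 of 8 T or NK cell and 4 of 6 erythroid markers. The part of all these markers in the adhesion gene differences was not tested.

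Promoter windows of 250 bases before to 50 bases after the start were taken from RefSeq (GRCm38.p6) for 20 of the 32 measured genes, using the first window listed per gene. The 20 do not include Itgb2, Itgal, Pecam1 or Selplg, so Itgb7 is the one gene among the 5 with an unadjusted p under 0.05 that was searched. They were searched on both strands for GAGGAA, the purine-rich core bound by the myeloid factor PU.1, which is known to act on the ITGAM promoter in human cells. The letters were present in 9 of the 20 windows (45.0%) and in 28.3% of 27025 windows of the same length. The windows shown are those of Itgb7, which had the largest difference, and Itgam, the myeloid chain for which that motif is known, with matches in capitals (TTCCTC is the match on the other strand).
Itgb7: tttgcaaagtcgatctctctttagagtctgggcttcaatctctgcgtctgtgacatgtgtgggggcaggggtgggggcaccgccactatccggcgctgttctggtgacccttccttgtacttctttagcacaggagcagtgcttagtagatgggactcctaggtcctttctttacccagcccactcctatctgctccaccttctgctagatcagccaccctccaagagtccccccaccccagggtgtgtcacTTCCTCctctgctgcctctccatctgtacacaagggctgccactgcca
Itgam: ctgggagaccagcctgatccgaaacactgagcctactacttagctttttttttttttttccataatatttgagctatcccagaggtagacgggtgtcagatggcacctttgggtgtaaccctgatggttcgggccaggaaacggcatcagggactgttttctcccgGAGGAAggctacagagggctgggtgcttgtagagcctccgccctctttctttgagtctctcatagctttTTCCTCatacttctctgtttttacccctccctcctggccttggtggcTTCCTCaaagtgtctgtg
The Itgb7 window is chr15:102231886-102232185 on the minus strand and holds 1 match, and the Itgam window is chr7:128062390-128062689 on the plus strand and holds 3. Cd44, Itgav and Itgb2l hold 2 matches each. Itgb1, whose groups overlapped, also holds 1 match, as do Itga5, Itga11 and Tln1. The windows of Itga2, Itga3, Itga8, Itga9, Itgb5, Itgb6, Cd9, Cd47, Fermt3, Icam1 and Vcl hold 0. A relation between matches and differences was not tested. A match describes letters and is no evidence of binding in these cells.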

How the data were processed

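Total RNA was biotin-labelled with a whole-transcript Affymetrix kit, per the labels. The table holds log2 values that the authors made with Affymetrix Expression Console and RMA, according to the submitters' processing notes, with a version not given in the sources used here. This method forces a common distribution on the probe signals of the arrays before they are summarised, which hides any change in the total RNA of a cell. The summarised values still differed a little, with array medians from 6.55 to 6.66. The scale was taken as log2 from the deposited range of 0.90 to 13.74. Scanner files were not used, so no detection calls were made, and the number of arrays limits the precision.

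Of 23332 rows, 14996 had 1 gene symbol in the platform annotation, 1019 had several and 7317 were unnamed here. Per gene the row with the highest mean was kept, and each measured member had 1 row. Array groups came from the titles. R 4.3.3 and limma 3.58.1 (lmFit, eBayes, no filter) compared 3 knockout with 3 wild-type arrays over all genes, two-sided, Benjamini-Hochberg adjusted. An exact permutation test of 3 against 3 has a smallest p of 0.1. The fit was tested on simulated data. Every measured member was eligible to be named, and of the other lists up to 4 genes at an unadjusted p under 0.05. Itga2b, Itgb3, Fut7, Cd34, Fn1 and some cell type markers were named outside this rule, after their values were seen. Members, lists and the promoter motif were chosen with earlier results of these data known. Figures used Python 3.11.15 and matplotlib 3.10.9.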

Additional observations from a re-analysis of the deposited data

How the results depend on the processing

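No paired analysis was possible because all 3 wild-type titles end in the same number. No adhesion gene passed an adjusted p of 0.05 in limma under any of the 16 alternatives run. The smallest adjusted p was 0.130, for Pecam1 with array weights, and 4 to 7 adhesion genes had an unadjusted p under 0.05, of 32 tested, or of 19 and 23 under the filters on level. The share of all genes ran from 4.97% to 14% (array weights, with 7 adhesion genes). All were lower in the knockout except 1 with array weights and 1 without knockout 3. Itgb7, Itgb2, Itgal, Pecam1 and Selplg kept a negative difference under all of them. The whole-table count of 4 became 2 with median centring, 16 with array weights, 14 among genes above the 50th percentile of level, 13 among genes above the olfactory receptor percentile, 0 over all rows, 9 with a variance trend, 12 at an adjusted p under 0.1, and 0 to 1 with an array left out. The count of adhesion genes without overlap was 8 with median centring, with quantile normalization and under both filters on level. It ran from 10 to 14 with an array left out. The share of all genes is not given beside these counts. The median difference of the adhesion genes turned to 0.0053 with median centring and 0.00015 with quantile normalization. It was −0.0402 with array weights, −0.0756 above the 50th percentile and −0.0726 above the olfactory receptor percentile. With an array left out it ran from −0.0600 to −0.00195. The count above background was 26 at the 90th and 19 at the 99th olfactory receptor percentile. The cause of these shifts was not tested.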
